A study of Mus musculus with 16 samples.

Results

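Wild-type (WT) CD8 T cells were examined for the mRNAs that sat in their polysomal RNA and for those that sat in their sub-polysomal RNA. The measurements were the 8 two-colour arrays of 4 WT extracts, chosen as all arrays whose title names OT-1 WT, out of 16 arrays and 8 extracts in the series. The other 4 extracts, from Lck-/- cells, were not compared here. Cells came from lymph node of OT-1het, Rag-/- mice, whose transgenic OT-1 receptor recognises SIINFEKL, a peptide of ovalbumin, and which rearrange no antigen receptors of their own without Rag. All were given 100 nM SIINFEKL for 24 h and 100 µg/ml cycloheximide, which freezes ribosomes on mRNA, for the last 10 min. Lysates freed of nuclei were spun through sucrose of 10 to 50%, the sub-polysomal pool was made of fractions 1 to 5 and the polysomal pool of fractions 6 to 10, and 1.5 µl of each pool was labelled. The labels call the extracts biological replicates without saying whether each came from its own animal or culture, so a p-value here speaks of the spread between the 4 extracts and no more.

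A translated mRNA carries several ribosomes at once, and this polysome sediments deep into a sucrose gradient. Free mRNA, mRNA with a single ribosome and RNAs that are never translated stay near the top. In T cells, antigen and costimulation raise protein synthesis through mTOR and MYC, and translation of some effector mRNAs is held back or released by elements in their untranslated regions. The log2 ratio of polysomal over sub-polysomal RNA within an array is the measure used throughout. A ratio above 0 means that a gene's RNA was more polysomal than the loess centre of that array at its brightness. This centre was close to the typical gene except at the bright end. The 318 genes with a mean log2 intensity over 15 had a median of -1.09, and the medians of dimmer bins lay between -0.02 and 0.10. The ratio is no share of molecules on ribosomes, since the zero was set by the normalization. Before it, the median ratios of WT extracts 1 to 4 were 1.38, 1.16, 1.71 and 1.02. Ratios are averages over all cells of an extract, and in such bulk RNA fewer cells of a type and less RNA per cell cannot be told apart.

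All 9 CD8 T cell markers were detected, among them Cd3e, Cd8a and Cd8b1. Of the markers of other cells, 3 of 4 for CD4 or regulatory T cells (Cd4, Ctla4, Zbtb7b), 4 of 9 for macrophages (Cd68, Csf1r, Ctss, Itgam), 2 of 6 for erythroid cells (Hba-a1, Hba-a2), and 1 of 7 each for B cells (Cd79b), dendritic cells (Siglech) and neutrophils or mast cells (Elane) were detected. None of the 5 NK cell markers or the 9 stromal markers was. The part of these other cells in the ratios was not tested. An array had 15795 to 26634 probes well above background for polysomal RNA (median 21332) and 12529 to 26349 for sub-polysomal RNA (median 18446), and 0 spots were saturated.

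Both arrays of an extract should agree once the dye is turned. The arrays of WT extracts 3 and 4 correlated with their own dye swaps at r = 0.45 and 0.64 over 8558 genes, taken on the deviations of each gene from its mean over arrays. Those of WT extracts 1 and 2 went the opposite way, at r = -0.83 and -0.82 with their own dye swap, and at 0.73 and 0.82 with the dye swap of the other. Whether these 2 dye swaps carry each other's label was not tested. The labelled pairing was kept, and the called counts of each class and list are also given with these 2 dye swaps exchanged, called crossed below, which leaves the means in place and widens the errors. If they were exchanged, the standard errors of the labelled pairing are too small: their median over genes was 0.085 as labelled and 0.161 when crossed. The arrays also lay on 2 slides with 4 WT arrays each, 1 of every extract as labelled. The mean on each slide is printed where it moves a result. When crossed, extracts 1 and 2 each have both arrays on the same slide. The r of 0.73 and 0.82 thus come from arrays that share a slide, and the crossed errors also hold the difference between slides. Crossed and slide results are therefore not separate checks, and the part of the slide in them was not tested.

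Of 8558 genes with signal in both fractions, 3003 (35.1%) were higher in polysomal RNA and 2557 (29.9%) were higher in sub-polysomal RNA (limma, adjusted p under 0.05), together 65.0%. With the dye swaps crossed, 1381 (16.1%) and 1259 (14.7%) passed, and 2640 genes passed in the same direction under both pairings. The spread was wider towards the sub-polysomal side. The 5th percentile of the log2 ratio was -1.24, the 25th -0.35, the median 0.04, the 75th 0.39 and the 95th 0.88. At least 2-fold higher in polysomal RNA were 262 genes (3.06%), against 649 (7.58%) that were at least 2-fold lower. In what follows "higher" and "lower" mean higher and lower in polysomal RNA by this test, and counts of a list are read against the shares of 35.1% and 29.9%. The lists were written from textbook knowledge, and their counts and medians are descriptions.

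The strongest separation was between kinds of RNA. Small nuclear and nucleolar RNAs and RNase MRP RNA, which work in the nucleus and carry no reading frame, were lower in 6 of 6 cases, also when crossed, with a median of -5.06. Rnu1b6, a U1 spliceosomal RNA, had log2 ratios of -5.89, -6.27, -6.74 and -5.48 in WT extracts 1 to 4, which is 68.3-fold lower in polysomal RNA. Rmrp, the RNA of RNase MRP, stood at -6.02 ± 0.13 (SE, n = 4), 65.0-fold lower. Rnu2-10 (-5.08), Rnu3b1 (-5.04) and Snora74a (-4.89) followed. Every extract was below -4 for each of these.

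All 13 mitochondrially encoded mRNAs were lower, also with the dye swaps crossed. These mRNAs are translated by mitochondrial ribosomes inside the organelle and not by cytosolic polysomes. Their median was -3.83, and the extract medians were -3.22, -3.06, -4.54 and -3.36, so extract 3 was the lowest. mt-Nd3 (-4.71), mt-Atp8 (-4.67), mt-Atp6 (-4.51), mt-Co2 (-4.41), mt-Nd1 (-3.95), mt-Nd2 (-3.90) and mt-Co3 (-3.83) were among the 15 lowest genes of all. The subunits mt-Nd4 (-3.07), mt-Cytb (-2.91), mt-Nd5 (-2.63) and mt-Co1 (-2.53) were less extreme. mt-Nd6, the 1 mRNA of the list encoded on the light strand, stood apart at -0.60, -0.86, -0.83 and -0.35, a mean of -0.66.

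Long non-coding RNAs with a gene symbol were lower in 85 of 106 cases (median -0.64), and 57 of them passed with the dye swaps crossed. Probes for lincRNAs that matched no symbol showed the same side without a test: 668 of 925 had a mean below 0, with a median of -0.46. The host genes of small nucleolar RNAs and other well-known long RNAs, a list of 18 tested, were lower in 18 of 18 (16 when crossed), with a median of -2.35. Snhg12 stood at -2.83, -2.82, -3.50 and -3.81, and Snhg6 (-3.53), Dancr (-3.64), Gas5 (-3.19), Snhg1 (-2.71) and Zfas1 (-2.30) stood beside it. Mir17hg, the host transcript of the miR-17 to miR-92 cluster, was at -3.20 ± 0.08. Malat1 and Neat1, which are nuclear RNAs, stood at -1.47 and -2.11. The Malat1 probe was dim, with a mean log2 intensity of 7.87 and both channels well above background on 6 of 8 arrays. It read -2.07 with median centring in place of loess and -2.70 with the scanner software's own processed signals. Gas5 in these cells was thus as far from polysomes as a mitochondrial mRNA, with no extract above -2.77.

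**Figure D1:**
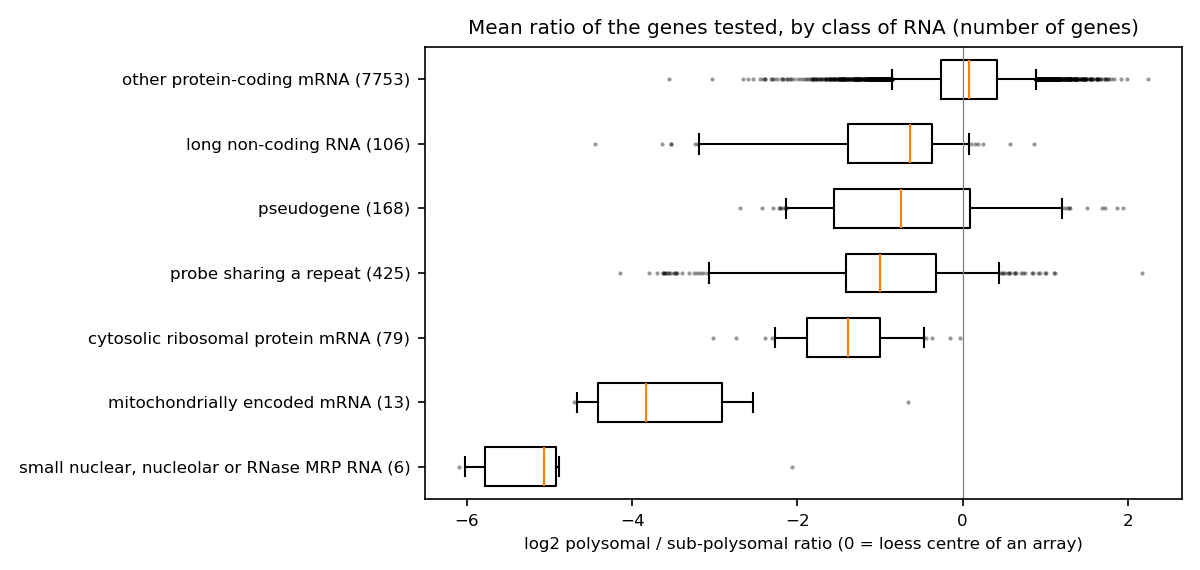
Log2 ratio of polysomal over sub-polysomal RNA (horizontal axis, 0 is the loess centre of an array) for 7 classes of RNA, mean of 4 WT extracts. Boxes span the quartiles with the median as a line, whiskers reach the 5th and the 95th percentile of the class, and points are genes beyond. The medians run from -5.06 for small nuclear and nucleolar RNAs and -3.83 for mitochondrial mRNAs to 0.08 for other mRNAs.

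Probes that share a stretch of sequence with many loci formed another low class. Of 425 such genes, 312 were lower (median -1.002) and 247 when crossed, and extract 4 was the least low, with a median of -0.33 against -0.93, -0.98 and -1.52 in extracts 1 to 3. The probe of Exosc2, an exosome subunit, is shown because 44 of its bases are covered by stretches of 14 bases that recur among RefSeq promoter windows, the commonest of them in 78 windows. The first 30 of these bases are printed in lower case.

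Exosc2: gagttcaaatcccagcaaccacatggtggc

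This probe read -3.79, -3.55, -4.04 and -3.08. A ratio from such a probe cannot be assigned to the gene it is named for, so genes of this class are left out of the named genes. Pseudogenes, whose probes can also read the parent mRNA, were lower in 104 of 168 cases with a median of -0.75. When crossed 59 were lower. Slide 1 gave a median of -0.97 and slide 2 one of -0.29, against -0.37 with the scanner software's own processed signals.

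The remaining 7753 protein-coding genes had a median of 0.08, with 2925 higher and 1956 lower (1347 and 825 when crossed). At the polysomal end stood Ncl, nucleolin, an RNA-binding protein of ribosome biogenesis, at 2.09, 2.12, 2.48 and 2.26, which is 4.72-fold higher in polysomal RNA. The next were Pfdn6, a prefoldin subunit (1.97, 1.66, 2.21 and 2.13), Snrpb, a core protein of spliceosomal particles (1.92), Ssb, the La protein (1.83), Rtn3, an ER membrane protein (1.80), and Srp54a of the signal recognition particle (1.76). The respiratory chain subunit Ndufc2 (1.76), the chaperonin subunits Cct8 (1.73) and Cct7 (1.64), the splicing factor Srsf3 (1.73), the membrane-to-actin linker Rdx (1.72), the proteasome lid subunit Psmd14 (1.69), Pa2g4 (1.66), cyclin D2 (Ccnd2, 1.66) and Snrpd3 (1.64) completed the 15 highest. In each of them all 4 extracts lay above 1. Their mean ratios span 1.64 to 2.24, a far narrower range than the low end of the scale.

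Among protein-coding genes outside the classes above, the lowest were picked after their values were seen. Rnase10 (-3.55), Plcd4 (-3.04) and Dlx3 (-2.31) are not known as T cell genes, and which RNA their probes read was not tested. Ncbp3, a cap-binding protein of mRNA export, stood at -2.66 ± 0.12, and Rsrp1 (-2.60) and Ccnl2 (-2.18), both linked to splicing, stood near it. Fth1 and Ftl1, the ferritin subunits, and Tpt1, described below, were in the same group, as were Selenow, a selenoprotein (-2.40), and Nfkbid, a nuclear IkB protein (-2.28). Fgd4 (-2.45) ranged from -4.18 in extract 3 to -0.55 in extract 4, so its mean is loosely fixed.

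The mRNAs of cytosolic ribosomal proteins form the best-known translationally controlled family. Most begin with a C followed by a run of pyrimidines, the 5′ terminal oligopyrimidine (TOP) motif, through which mTOR governs their loading onto ribosomes. Of 82 tested, 79 were lower and 0 were higher. With the dye swaps crossed 50 were lower. The probes of 3 members share a repeat. The median was -1.37, with -1.47, -1.17, -1.32 and -1.58 in the 4 extracts, so all 4 lay well below the median of all genes. Rps12 (-2.99, -2.80, -3.21 and -3.10), Rpl12 (-2.73, -2.65, -2.85 and -2.75), Rps27 (-2.16, -2.00, -2.44 and -2.99) and Rpl41 (-2.00, -1.81, -2.30 and -3.12) were the furthest towards sub-polysomal RNA of those named here. Rps18 (-1.64) and Rps6 (-1.56), the latter a classical S6 kinase substrate, sat close to the median. The 3 that did not pass were Rpl27 (-0.16), Rpl36al (-0.03) and Rps27l (-0.45), of which the latter are paralogues of other members.

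The size of this shift depended on the slide and on the background and dye correction. The median of the ribosomal protein list was -2.06 on slide 1 and -0.74 on slide 2, and -0.16 with the scanner software's own processed signals. Rps12 kept -3.48 and -2.57 on the 2 slides and -1.56 with the processed signals, while Rpl27 turned to 1.09 with the latter. Ribosomal protein mRNAs are among the brightest on the array, and brightness moved with their ratio, with a part in the result that was not tested: 75 of the 318 genes with a mean log2 intensity over 15 were ribosomal protein genes, at a median of -1.39. The 104 other mRNAs of that brightness had a median of 0.13 (0.18 on slide 1, 0.06 on slide 2), and 0.89 with the processed signals. The median of ribosomal protein mRNAs was below that of these bright mRNAs on both slides and with the processed signals, under which it lay near 0.

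**Figure D2:**
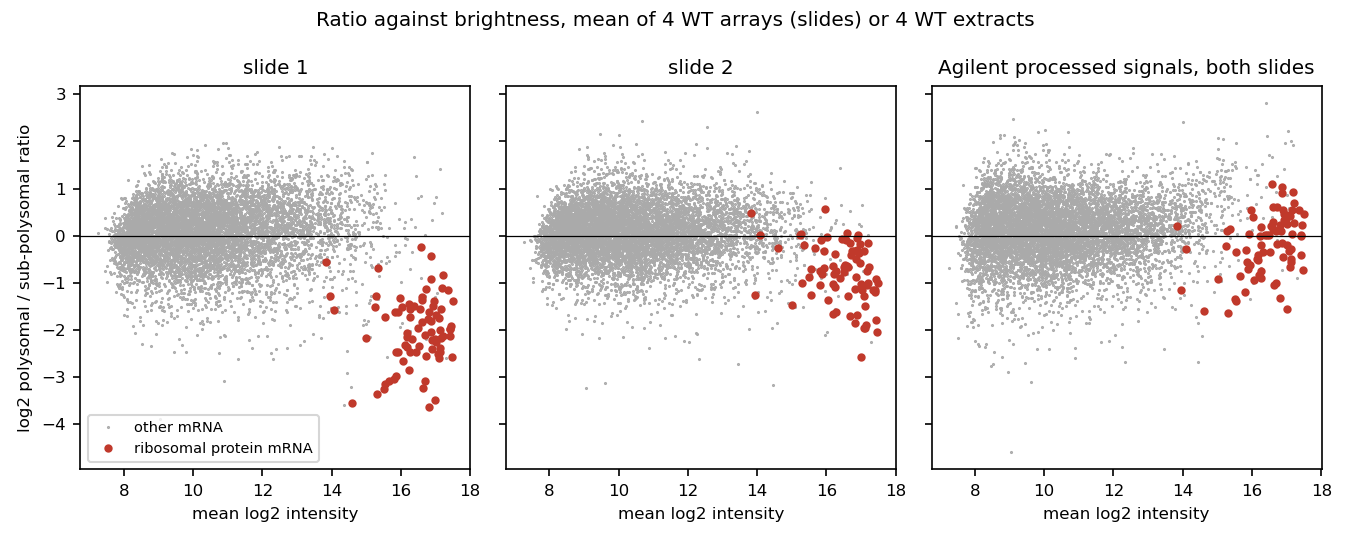
Log2 ratio (vertical axis) against mean log2 intensity (horizontal axis) of each gene, mean of 4 arrays for slide 1 and slide 2 and of 4 extracts for Agilent processed signals; red points are cytosolic ribosomal protein mRNAs and grey points other mRNAs. The red points leave out members whose probes share a repeat, and have medians of -1.99, -0.75 and -0.15 from left to right. The grey points with a log2 intensity over 15 have medians of 0.18, 0.06 and 0.89.

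The first bases of the annotated transcripts are shown for 6 ribosomal protein genes, for Tpt1 and, from the other end of the scale, for Ncl. Each window runs from 5 bases before the RefSeq start to 20 bases from it, in GRCm38.p6, 5′ to 3′ on the gene's strand. Capitals mark a run of C followed by at least 4 bases C or T whose C lies within 5 bases of the start.

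Rpl12, chr2:32961707-32961731, plus strand: gatccgtCTTTTCggctttcggctc
Rps27, chr3:90213629-90213653, minus strand: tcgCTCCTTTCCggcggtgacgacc
Rps6, chr4:86857348-86857372, minus strand: cgggCCTCTTTTTCgtgacgcctcc
Rps18, chr17:33955646-33955670, minus strand: ccgCTCTCTCTTCCacaggaggcct
Rps12, chr10:23787190-23787214, minus strand: cggccaccgccggccttttcccctg
Rpl41, chr10:128549149-128549173, minus strand: ggctcggaagtgacgacaccgagca
Tpt1, chr14:75845251-75845275, plus strand: acgacagttccgggggagccgcgga
Ncl, chr1:86359436-86359460, minus strand: acggacgcgagctctggttggtgga

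A run of this kind was present in 18.3% of 32851 RefSeq windows, of which a gene can have more than 1. Counted by gene, it was present in 30 of the 61 ribosomal protein genes with a window (49.2%) and in 23.7% of other mRNAs with a window. Genes with and without it had the same median of -1.31, 30 and 31 genes. Among 6354 other mRNAs with a window, the 1509 with a run had a median of 0.11 and the 4845 without one 0.07. Rps12, Rpl41 and Tpt1 have no run that begins within 5 bases of the annotated start. The Rps12 window holds a stretch of pyrimidines further in, which the distance rule leaves unmarked, so a gene without a marked run may still carry one further from the start.

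Elongation factors and other mRNAs known to begin with a TOP motif were lower in 13 of 20 cases and higher in 2 (10 and 1 when crossed), with a median of -0.74. Tpt1, which encodes the translationally controlled tumour protein, stood at -2.41, -2.14, -2.92 and -2.21 and kept -2.59 and -2.25 on the 2 slides. Pabpc1, the poly(A)-binding protein (-1.95), Eif3f (-1.74), Ybx1 (-1.66) and Eef1b2 (-1.56) were also lower. Gas5 belongs to this list too. Eef1a1, the main elongation factor, was at -0.90 ± 0.12, and at 0.11 with the processed signals, under which the median of the list was 0.01. Eef1d ran the other way at 0.61, 0.96, 0.92 and 1.00.

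Lists of other parts of the translation machinery had medians on the polysomal side. Of 20 genes of aminoacyl-tRNA synthetases and of the synthetase complex proteins Aimp1 and Aimp2, 14 were higher and 1 lower. Their median was 0.63 (10 and 0 when crossed). Dars, which charges aspartate, was at 1.11, 1.03, 1.77 and 1.98, Hars (histidine) at 1.28, Gars (glycine) at 1.21 and Wars (tryptophan) at 1.02. Initiation factors were higher in 19 of 38 cases and lower in 5 (11 and 1 when crossed), with a median of 0.28. This list leaves out Eif3f, counted with the TOP mRNAs above, and Eif4b (-0.08), and it includes Eif4ebp1 (-0.45) and Eif4ebp2 (-0.26). Eif6, which keeps free large subunits from joining (1.06), Eif4h (1.03), the scaffold Eif4g1 (0.97), Eif5a (0.96) and Eif3b (0.94) were higher. Eif4a2, a paralogue of the cap helicase, was lower at -1.47, -1.21, -2.00 and -1.86.

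Ribosome biogenesis factors were higher in 26 of 47 cases and lower in 5 (15 and 3 when crossed, median 0.32), and this list held both the highest mRNA of the data set and clearly low ones. Besides Ncl, Ftsj3 (1.56) and Bms1 (1.32), which process pre-ribosomes, were higher. Nop56, a box C/D snoRNP protein whose gene itself hosts snoRNAs, was lower at -1.60, -1.41, -1.97 and -1.18. Utp6 had the lowest value of the list at -3.26, but its probe shares a repeat.

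Chaperones and protein turnover gave the highest list medians of all 32. Cytosolic chaperones were higher in 21 of 26 cases, 10 of them at least 2-fold, and lower in 1, with a median of 0.86 (17 and 0 when crossed). The extract medians were 0.73, 0.80, 0.96 and 0.78, and both slides gave 0.86. Besides Pfdn6, Cct8 and Cct7, the chaperonin subunit Cct4 stood at 1.18, 1.36, 1.05 and 1.39, and Hspa9, the mitochondrial HSP70, at 1.17. Hsp90aa1 was at 0.37, 0.72, 0.67 and 0.70. Proteasome genes were higher in 34 of 41 cases and lower in 1, with a median of 0.69 (20 and 0 when crossed). The lower gene, Psme3, has a repeat-sharing probe. Psma4 (1.38, 1.49, 1.65 and 1.81), Psma6 (1.56) and Psmb2 (1.50) were the leading core subunits named here.

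Genes of folding and translocation at the endoplasmic reticulum, with those of the signal recognition particle among them, were higher in 23 of 35 cases and lower in 2 (18 and 0 when crossed, median 0.50). Ssr2 of the translocon stood at 1.28, the lectin chaperone Canx at 1.15 and Hspa5 (BiP) at 0.66. Both slides gave a list median close to the whole, 0.49 and 0.50.

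**Figure D3:**
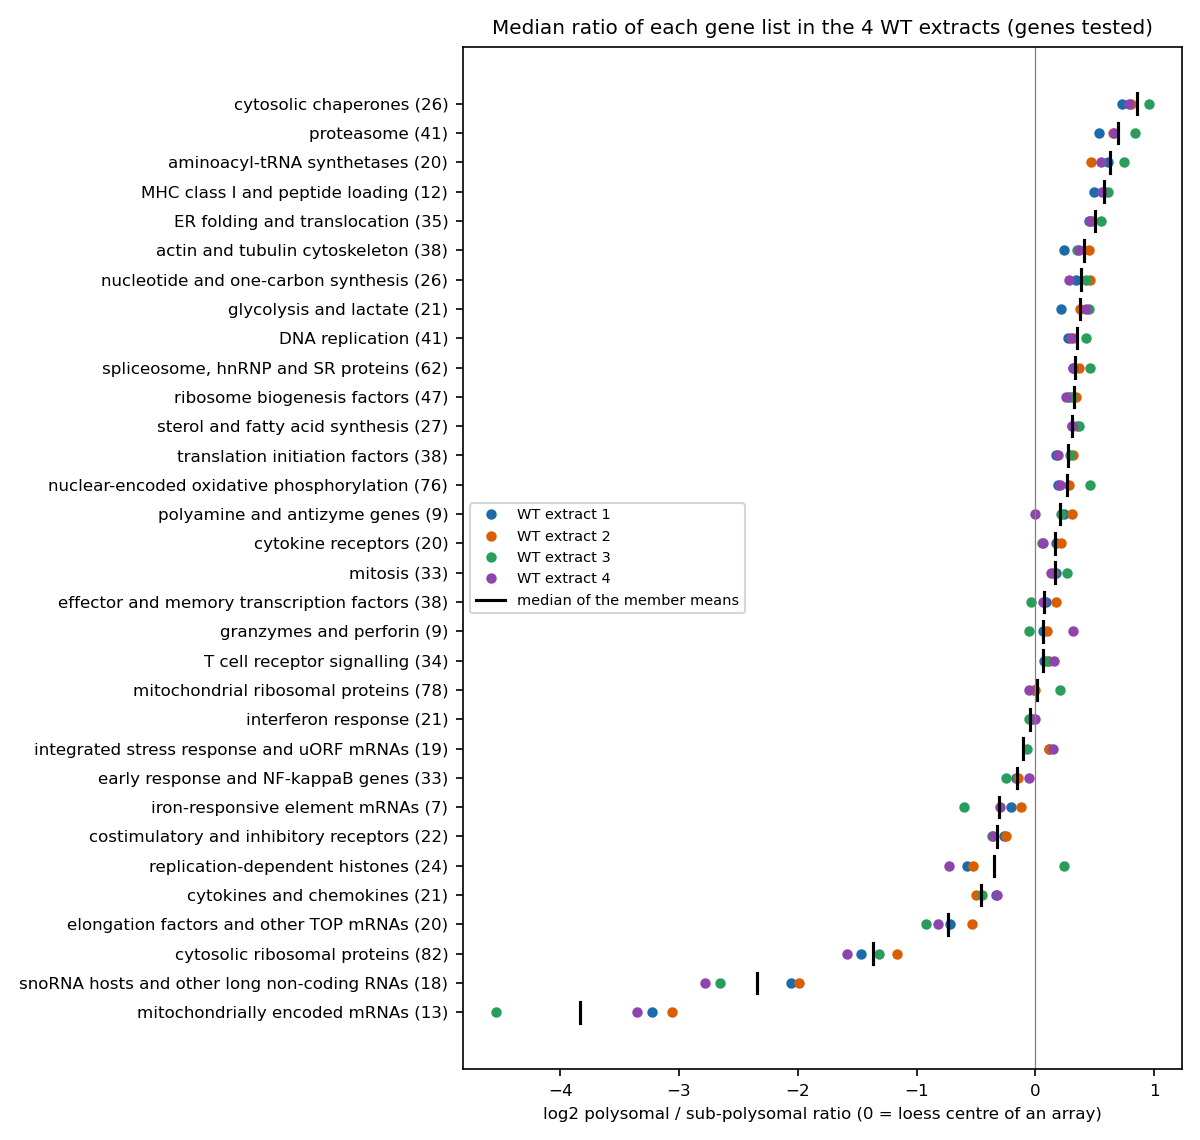
Median log2 ratio of polysomal over sub-polysomal RNA (horizontal axis) of 32 gene lists, with the number of genes tested in brackets; points are the 4 WT extracts and the bar the median of the members' means. Chaperones (0.86) and proteasome (0.69) are at the top, and snoRNA hosts (-2.35) and mitochondrially encoded mRNAs (-3.83) at the bottom.

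Glycolysis genes were higher in 14 of 21 cases and lower in 1, which rests on a repeat-sharing probe (9 and 0 when crossed, median 0.38). Ldha, lactate dehydrogenase, was the leading member at 1.24, 1.77, 1.46 and 1.72, and Pkm (0.88) and the lactate exporter Slc16a3 (0.77) followed. Nucleotide and one-carbon synthesis was higher in 19 of 26 cases and lower in 2 (10 and 0 when crossed, median 0.38), led by the purine enzymes Gmps (1.43, 1.21, 1.70 and 1.89) and Gart (1.54) and by Nme1 (1.35). Sterol and fatty acid synthesis was higher in 17 of 27 and lower in 1 (9 and 0 when crossed, median 0.31), with Acaca (1.09), Cyp51 (0.95) and Hmgcs1 (0.85). Polyamine genes were higher in 2 of 9 cases and lower in 1, and none of them passed with the dye swaps crossed.

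The nuclear genes of oxidative phosphorylation did not share the low ratio of their mitochondrial partners. They were higher in 37 of 76 cases and lower in 5 (20 and 1 when crossed), with a median of 0.27, and Atp5g3 (1.38) and Cox5a (0.95) joined Ndufc2 among the higher ones. Uqcr10, of complex III, was lower with a mean of -1.46, and extract 4 stood far below the others at -2.53. Mitochondrial ribosomal proteins were split evenly, with 22 higher and 21 lower of 78 (5 and 6 when crossed) and a median of 0.02. Mrpl15 (0.88) and Mrps28 (0.86) were at the upper end and Mrpl42 (-1.39, -1.54, -1.05 and -2.41) at the lower. Mrpl42 was the 1 member of the mitochondrial family as low as Rps6.

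Ferritin is the textbook case of translation held back by an iron-responsive element in the 5′ untranslated region. Fth1, the heavy chain, stood at -2.37, -1.98, -3.41 and -2.37, and Ftl1, the light chain, at -2.16, -2.13, -3.09 and -1.88. Both were lower in every extract and on both slides, Fth1 at -3.21 and -1.86 and Ftl1 at -2.51 and -2.11. Tfrc, the transferrin receptor, whose elements lie in the 3′ untranslated region and act on stability, was at 0.00, 0.15, -0.16 and 0.02, but at -0.51 on slide 1 and 0.52 on slide 2. Sdhb (0.14) and Slc11a2 (-0.12) did not pass. Whether each listed mRNA, Sdhb among them, carries such an element in the mouse was not tested. Of the 7 genes of the list tested, 4 were lower and 0 higher (3 and 0 when crossed), 1 of the 4, Epas1, through a repeat-sharing probe.

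Upstream reading frames repress many mRNAs of the integrated stress response until eIF2 is phosphorylated. Of 19 tested, 9 were higher and 4 lower (4 and 3 when crossed), and the list median had no stable side, being -0.10 in the mean of both slides, 0.18 on slide 1 and 0.44 with the processed signals. Chac1 (-1.06, -0.96, -1.41 and -1.53), Ddit3, which encodes CHOP (-1.01), and Mdm2 (-0.58) were lower. Trib3 (0.86) and Asns, asparagine synthetase (0.80), were higher. Atf4, the central factor of this response, was at -0.08, 0.11, -0.08 and -0.63 and did not pass, and it stood at 1.02 with the processed signals.

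Genes of proliferation were spread. DNA replication genes were higher in 24 of 41 cases and lower in 7 (11 and 2 when crossed, median 0.35), with Fen1 (0.98, 1.14, 1.26 and 1.15) and Mcm6 (0.82) on the polysomal side. The regulators E2f1 (-0.94, -0.81, -1.98 and -1.75) and Cdt1 (-0.57) were on the other. Mitotic genes were higher in 15 of 33 cases and lower in 4 (6 and 2 when crossed, median 0.16). Top2a (1.30), Bub1b (0.93) and Cdk1 (0.70) were higher, while Ccnb1, cyclin B1, the partner of Cdk1, was lower at -0.97, -0.96, -1.16 and -0.75, as was Ect2 (-0.73). Replication-dependent histones, whose mRNAs end in a stem-loop and lack a poly(A) tail, were lower in 9 of 24 cases and higher in 0 (4 and 0 when crossed). Their median was -0.35, but it was -0.85 on slide 1 and 0.26 on slide 2, and 0.24 in extract 3 against -0.58, -0.52 and -0.73 in the others. H3c11 (-1.08), H2ac4 (-0.98), H1f1 (-0.74) and H4c9 (-0.68) were the ones that passed when crossed, and they kept their side on both slides. Members of this family share sequence, so a probe may read more than 1 of them.

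Effector genes of CD8 T cells stood on both sides of 0. In a list of granzymes, perforin and other genes of cytotoxic granules and killing, 3 of 9 were higher (Nkg7, Ctsc and Lamp1) and 2 lower (Prf1 and Fasl), and 1 and 0 when crossed. No granzyme passed. Gzmb, granzyme B, was at 0.03, 0.10, -0.15 and 0.27, near the typical mRNA, with -0.60 on slide 1 and 0.73 on slide 2. Gzma (0.24) also changed side between slides, at -0.40 and 0.87. Nkg7, a membrane protein of cytotoxic granules, was higher at 0.69, 0.75, 0.49 and 0.81, with 0.72 and 0.65 on the 2 slides. Prf1, perforin, was lower at -0.48, -0.80, -0.98 and -0.44, and did not pass when crossed (limma, adjusted p = 0.16).

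Cytokine mRNAs were mostly on the sub-polysomal side, with 12 of 21 lower and 3 higher and a median of -0.46. With the dye swaps crossed 2 were lower and 0 higher, and the median was -0.73 on slide 1 and -0.15 on slide 2. Tnf was lower at -0.87, -0.96, -1.10 and -1.22, and Tnfsf9, the 4-1BB ligand, at -1.08, -0.94, -0.95 and -0.94; these are the 2 that passed under both pairings. Ccl5 (-1.21, -1.41, -2.54 and -1.88) and Il2 (-1.13, -1.11, -1.14 and -1.60) missed the threshold when crossed (limma, adjusted p = 0.053 and 0.050). Ifng, interferon gamma, gave nearly the same value in each extract, -0.58, -0.61, -0.56 and -0.56. On the 2 slides it was -1.29 and 0.14, and it did not pass when crossed (limma, adjusted p = 0.32), and the value of each extract is a mean of 1 array from each slide. Xcl1 was on the polysomal side at 0.82, 0.65, 1.16 and 0.70, with adjusted p = 0.13 in limma when crossed. Ccl4 stood at 0.05 and did not pass.

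Costimulatory and inhibitory receptors were lower in 14 of 22 cases and higher in 4 (8 and 2 when crossed), with a median of -0.32 and -0.48 and -0.49 on the 2 slides. Cd69, the early activation antigen, was lower at -1.17, -0.90, -1.62 and -1.57. Cd48 (-0.90), Slamf6 (-0.82), Cd274, which encodes PD-L1 (-0.69), and Icos (-0.51) were lower as well. The 2 inhibitory receptors Lag3 (0.90, 0.82, 0.78 and 1.40) and Pdcd1, which encodes PD-1 (0.68, 0.49, 0.76 and 0.63), were higher in every extract.

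Receptors for cytokines were mixed, with 9 of 20 higher and 6 lower (3 and 2 when crossed). Tgfbr2 (0.76, 1.06, 0.96 and 0.86) and the common gamma chain Il2rg (0.84) were higher. Both chains of the interferon gamma receptor were lower, Ifngr2 at -1.01, -1.01, -1.25 and -1.62 and Ifngr1 at -0.58. Il2ra, the high-affinity IL-2 receptor chain, was at 0.21 and did not pass. T cell receptor signalling genes were higher in 15 of 34 cases and lower in 3, and 7 and 0 when crossed. Csk (0.74), the adaptor Lat (0.67, 0.72, 0.63 and 0.86), Vav1 (0.59), Plcg1 (0.57) and Cd3d (0.44) were higher. Cd8a (-0.14) did not pass, and the mean of its probes was 0.25. No gene of this list reached 2-fold in either direction.

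Transcription factors of effector and memory cells were split, 13 higher and 11 lower of 38 (7 and 3 when crossed). Ets1 stood highest at 1.34, 1.22, 1.42 and 1.50, with Foxo1 (0.78), Satb1 (0.72) and Tbx21, which encodes T-bet (0.59), behind it. Klf2, a quiescence and homing factor, was lowest at -1.14, -1.62, -1.94 and -1.88, and Id2 followed at -1.63, -1.67, -1.46 and -1.20. Stat4 (-0.47) was lower. Eomes (0.16) and Irf4 (0.07) did not pass, and Eomes was at 0.66 and -0.33 on the 2 slides. Myc was at -0.58, -0.31, -0.68 and -0.65 and did not pass when crossed (limma, adjusted p = 0.10).

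Early response and NF-kB genes, many with short-lived mRNAs, were lower in 13 of 33 cases and higher in 10 (8 and 3 when crossed). Among the lower ones were Nfkbid at -2.18, -2.33, -2.56 and -2.05, Socs1 at -1.20, -1.08, -1.52 and -1.98, the phosphatase Dusp2 at -1.23 and Zfp36l1, which destabilises AU-rich mRNAs, at -1.22. Ier3 (-0.95) was lower too. The NF-kB subunits Nfkb1 (0.90, 0.90, 1.30 and 0.99) and Nfkb2 (0.62) and the stress gene Gadd45b (0.68) were higher. The lower genes named here kept their side on both slides and passed when crossed.

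Antigen presentation by MHC class I was higher in 11 of 12 cases, with a median of 0.57, and the 1 lower gene, H2-Q4, has a repeat-sharing probe. With the dye swaps crossed, 3 were higher and 1 lower. H2-K1 was at 0.35, 0.70, 0.64 and 0.80. Tap1 (0.58) and B2m (0.37) did not pass when crossed (limma, adjusted p = 0.094 and 0.13). Class I heavy chains share sequence, so their probes may read more than 1 gene. Interferon response genes were split 6 and 6 of 21 (2 higher and 1 lower when crossed), with Igtp (0.68) and Gbp2 (0.61) higher and Irf9 lower at -0.81, -0.88, -1.08 and -0.99.

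**Figure D4:**
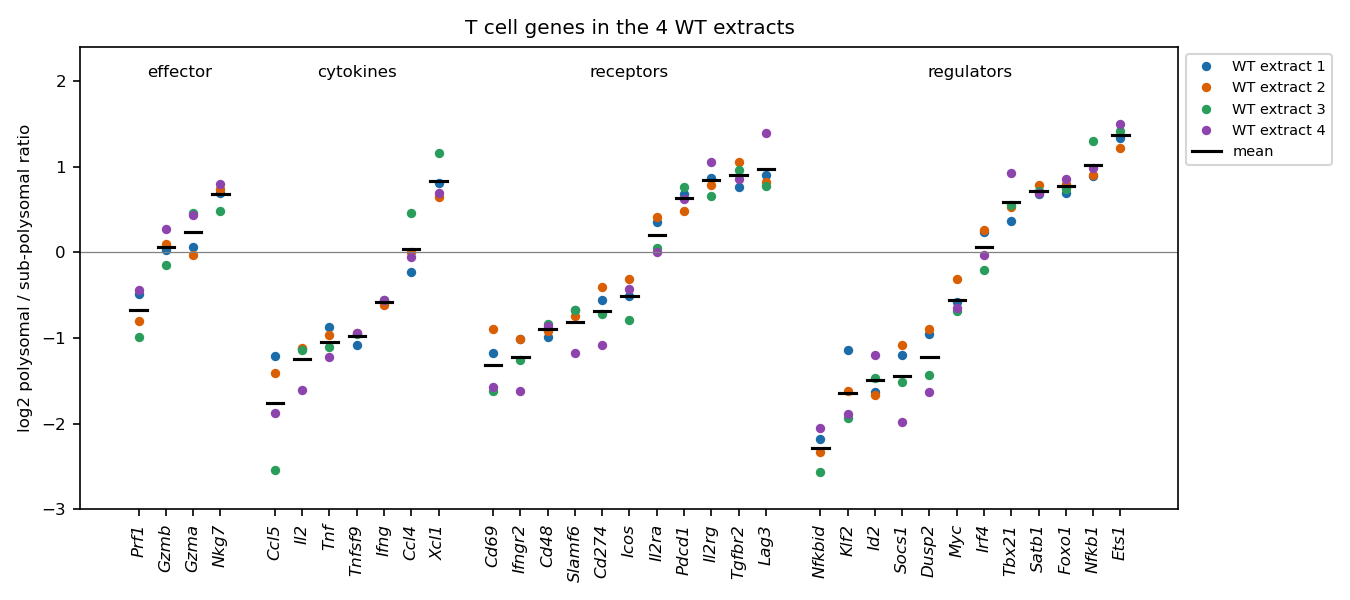
Log2 ratio of polysomal over sub-polysomal RNA (vertical axis) of T cell genes in each of the 4 WT extracts (points) with their mean (bar), grouped as effector genes, cytokines, receptors and regulators. Within each group members stand on both sides of 0, from -2.28 for Nfkbid to 1.37 for Ets1 among the regulators.

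Splicing factors were higher in 37 of 62 cases and lower in 9 (19 and 1 when crossed), with a median of 0.33, and of 0.53 and 0.16 on the 2 slides. Prpf19 was at 1.44 beside Snrpb, Srsf3 and Snrpd3, and Sf3b4 was lower at -1.44, -1.27, -1.14 and -1.23. Cytoskeleton genes were higher in 22 of 38 cases and lower in 5 (7 and 1 when crossed, median 0.41). Myh9, the heavy chain of non-muscle myosin, was at 1.30, 1.41, 1.13 and 1.35. Tmsb4x, thymosin beta 4, a short and very abundant mRNA, was at -1.68, -1.29, -1.03 and -3.17, with extract 4 far below the others.

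Among the other protein-coding mRNAs, the ratio moved with mRNA length. Length was taken as a lower bound, the farthest position of a probe in the transcript, for 7568 mRNAs of this class. Ribosomal protein mRNAs, mitochondrially encoded mRNAs and genes whose probe shares a repeat are left out, so the bins do not describe them. The median ratio was -0.06 for 257 mRNAs of up to 500 bases and 0.47 for 469 mRNAs over 6000 bases. The shortest group was not stable, at -0.33 on slide 1 and 0.17 on slide 2 and between -0.38 and 0.17 in the extracts. Of the longest, 307 were higher (65.5%) and 40 lower (8.53%), and 190 and 17 when crossed. In the bins from there to 3000 bases the medians lay between 0.01 and 0.05, and they were 0.12 in the bin up to 4000 and 0.24 in the bin up to 6000 bases. Over these mRNAs, which are not independent replicates, Spearman's rho was 0.19. The longest bin was the highest in each of the 4 extracts, with medians from 0.42 to 0.48, and on both slides, at 0.59 and 0.31.

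Different probes of a gene can read different transcripts of it. Of 1730 genes with a pair of usable probes, 706 (40.8%) had ratios that differed between the brighter and the second probe (limma, adjusted p under 0.05), and 134 did with the dye swaps crossed. A difference of at least 1 on the log2 scale was seen in 77 of the 706, and in 243 the probes stood on opposite sides of 0. The genes below had the widest differences. For Ddx39b, an RNA helicase of splicing and mRNA export, the brighter probe read 0.67, 0.53, 0.87 and 0.90 and the second probe -2.49, -2.98, -3.21 and -2.84, a difference of 3.62 ± 0.15 (SE). For Srsf11, a splicing factor, the brighter probe read 0.36, -0.18, 0.25 and 0.79 and the second -1.56, -1.43, -1.11 and -2.41. The probes of both genes are printed in mm9, 5′ to 3′, since they lie in different parts of the gene: per the array annotation the brighter ones were designed on RefSeq mRNAs and the second ones on Ensembl transcript models. Which transcript gave the signal was not tested.

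Ddx39b brighter probe, chr17:35381433-35381492, plus strand: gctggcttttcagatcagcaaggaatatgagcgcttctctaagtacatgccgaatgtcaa
Ddx39b second probe, chr17:35379420-35379479, plus strand: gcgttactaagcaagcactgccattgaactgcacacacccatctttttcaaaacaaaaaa
Srsf11 brighter probe, chr3:157675744-157675803, minus strand: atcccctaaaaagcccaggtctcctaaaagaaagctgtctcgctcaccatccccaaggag
Srsf11 second probe, chr3:157689536-157689595, minus strand: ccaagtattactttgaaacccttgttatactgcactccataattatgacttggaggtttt

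Mettl5, an rRNA methyltransferase, showed the same arrangement with 1.00 for the RefSeq probe and -1.59 for the probe of an Ensembl model. Morf4l2 (0.02 against -1.88) and Lrrfip1 (0.49 against -1.36) differed between probes of RefSeq mRNAs. In the other direction, the brighter probe was the lower one for Arglu1 (-0.47 against 1.42), Adk (-0.59 against 1.19), Ptma (0.28 against 1.99), Cbarp (-2.20 against -0.40) and Cnnm3 (-1.82 against 0.33). Cbarp did not pass when crossed (limma, adjusted p = 0.054). The brighter probe of Cnnm3 carries sequence that resembles a B1 repeat, seen by eye after its value was known, which the repeat search had missed. Arglu1, picked for its wide difference, was therefore below or above 0 in every extract depending on the probe.

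**Figure D5:**
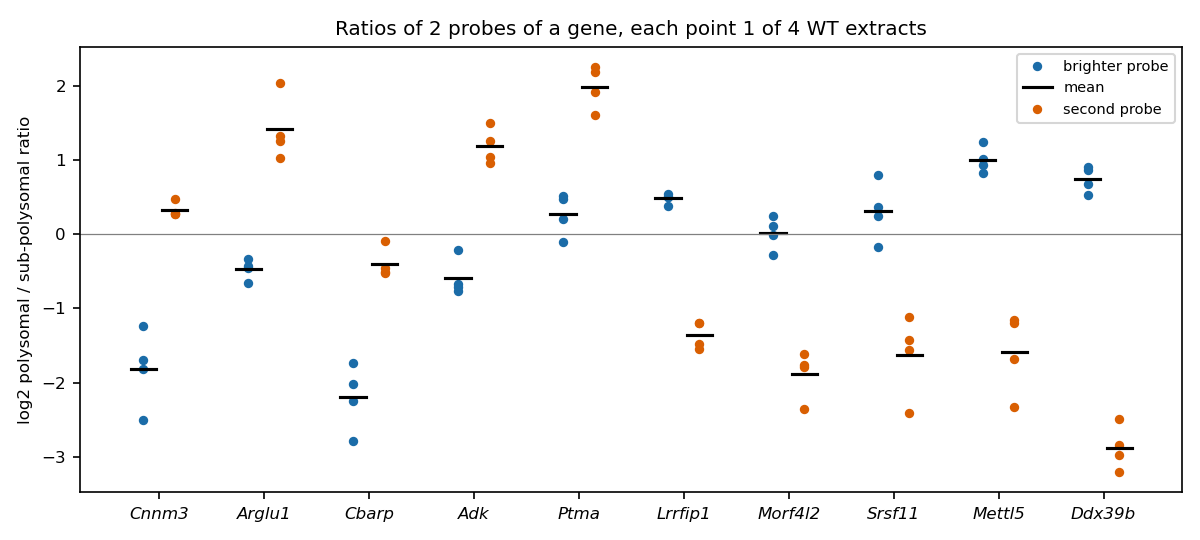
Log2 ratio (vertical axis) of the brighter (blue) and the second (orange) probe of 10 genes in the 4 WT extracts (points) with the mean (bar). The genes were picked for the widest differences between their probes, so the lack of overlap of the 2 sets of points is no separate result. Ddx39b has the widest gap, 0.74 against -2.88.

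Few genes were limited to 1 fraction. Armcx4 and Tet3, a methylcytosine dioxygenase, were well above background in polysomal RNA on 6 of 8 arrays and on 0 arrays in sub-polysomal RNA, which makes them at least 1.58-fold and at least 1.22-fold higher in polysomal RNA. These bounds set the bright mean against the lowest signal well above background on each array, and have no test. No gene was limited to sub-polysomal RNA under this rule.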

How the data were processed

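Polysomal and sub-polysomal RNA of 4 WT extracts were measured on 8 arrays with dyes swapped. Spot and background intensity stand in the deposited scanner files, which Agilent Feature Extraction 10.7.3.1 wrote per the file headers, with processed signals as intensity and with flags of another kind (yes or no per spot). The authors' deposited table holds log2 ratios, and the submitters' processing notes name limma; the normalization is not given in the sources used here. Of 62976 spots, 3671 were controls, and 31381 of 55681 probes matched 22328 genes in the table of RefSeq genes.

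Intensities were corrected with normexp (offset 50) and loess in limma 3.58.1 (R 4.3.3, with version 1.17.8 of data.table), turned to polysomal over sub-polysomal, and averaged over the 2 arrays of an extract. A gene was tested if both channels of its probe passed the flag for signal well above background on 6 or more of the 8 arrays, and the brightest probe stood for the gene. Ratios were tested against 0 with limma's moderated test, two-sided, on 4 extracts, with Benjamini-Hochberg adjustment over 8558 genes, and called at an adjusted p under 0.05. The SE printed is limma's moderated one. Only the limma step was tried on simulated data, drawn as independent values of 4 extracts. Background correction, loess, dye, slide and the pairing of dye swaps were not simulated. The number of extracts limits the precision. Repeat probes (1398) shared 20 bases with more than 5 loci, or at least 2 stretches of 14 bases with at least 10 promoter windows. RefSeq windows come from the GRCm38.p6 annotation.

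Members and lists were chosen with earlier results of these data known. Named genes were the 15 highest and 15 lowest called ratios with all extracts on 1 side of 0 and no repeat, leaving out clone, transcript, predicted and pseudogene names and antigen receptor segments, the 5 highest and 5 lowest probe differences, the bounds, list members and markers. Bins of protein length were planned; mRNA length replaced them, since no protein table was used here. The length bins, the classes of RNA and the lowest mRNAs were chosen after seeing the data. Of the list members, 2 are not reported here.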

Additional observations from a re-analysis of the deposited data

Results flagged for a closer look

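In 8 of 214 sets of 4 extracts checked, 1 extract stood apart by the gap to its nearest neighbour; chance alone flags about 1 in 20 such sets. WT extract 4 was the low one for Uqcr10 (log2 ratio -2.53), Il2 (-1.60) and Slamf6 (-1.18). WT extract 1 was the low one for Gars (0.97), Hsp90aa1 (0.37) and Tnfsf9 (-1.08). WT extract 3 was the high one for Mrps28 (1.20) and H2ac4 (-0.54). These values rest on the labelled pairing of dye swaps, under which a value of extract 1 or 2 may mix both.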

How the results depend on the processing

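No paired analysis was possible because a single group was used, so no groups share replicate numbers; the fractions of an extract are already paired within each array. Of the 21 alternatives, no normalization and the authors' ratios as deposited move the zero of the scale, and named genes were not compared singly under them. Over the other alternatives, the 181 genes named kept their direction and their side of the threshold in 3304 comparisons. They lost the call in 74, gained it in 11, turned in 5 and moved without a call in 30. The counts of genes higher and lower (3003 and 2557) became 7686 and 209 without normalization, 7971 and 102 with the authors' deposited ratios as they are, 1422 and 949 with polysomal RNA in Cy5 alone, 1172 and 1415 in Cy3 alone, 1668 and 1497 on slide 2 alone, 1381 and 1259 with crossed dye swaps, and 1480 and 1186 without WT extracts 1 and 2. Genes at least 2-fold higher and lower became 5870 and 74 without normalization and 7237 and 54 with the authors' deposited ratios, in both of which the zero of the scale moves; those higher were 584 with Agilent processed signals and 444 on slide 1 alone. Genes whose 2 probes differ (706) were 1097 with no filter, 150 in Cy5 alone, 95 in Cy3 alone, 210 on slide 1, 246 on slide 2, 134 crossed and 362 without WT extracts 1 and 2. Leaving out each extract gave 2548 to 3016 genes higher, 2133 to 2487 lower, 258 to 291 and 566 to 709 at least 2-fold higher and lower, 524 to 656 with differing probes, and medians from -1.42 to -1.31 for ribosomal proteins, -4.02 to -3.48 for mitochondrial mRNAs and -2.50 to -2.19 for snoRNA hosts. The ribosomal protein median was -0.16 with Agilent processed signals, -2.06 on slide 1 and -0.74 on slide 2, the mitochondrial one -3.11 with Agilent processed signals, and that of snoRNA hosts -1.45 with no filter. With Agilent processed signals the TOP list turned to 0.00845, Rpl27 to 1.09, Eef1a1 to 0.11 and Atf4 to 1.02. Ifng turned to 0.14 on slide 2 and Cd8a to 0.25 with the mean of all probes. The stress response list turned to 0.44 with Agilent processed signals, 0.0301 with median centring, 0.12 in Cy5 alone, 0.18 on slide 1, 0.0477 without WT extract 3 and 0.10 without repeat probes. On slide 2 alone the cytokine receptors turned to -0.00711 and T cell receptor signalling to -0.0164, and on slide 1 alone the early response list turned to 0.0342. The interferon list turned to 0.0122 with Agilent processed signals, 0.00554 with 8 of 8 arrays, with the mean of probes and without repeat probes, 0.0148 with no filter, 0.0995 on slide 2, 0.0103 without WT extract 4 and 0.0841 with the authors' ratios centred. Genes limited to polysomal RNA were 0 with 8 of 8 arrays and 13 with 1 dim array allowed, and 1 was then limited to sub-polysomal RNA. Leaving out each extract put the stress response list between -0.113 and 0.0477 and the interferon list between -0.0340 and 0.0103. The cause of these changes was not tested. Centred, the authors' WT means correlated with those used here at r = 0.973 over 8546 genes, which share the arrays.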
